A study of Mus musculus with 6 samples.

Results

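The nuclear receptor superfamily was followed in mouse prostate tumor cells after androgen withdrawal, as 46 receptor genes listed by symbol. A receptor counted as measured where a row of the array table named that gene and no other, and where several such rows existed the brightest over the 6 arrays was used. By this rule 42 of 46 receptors were measured, among 30065 genes tested in all. Esrra and Ppard were on rows shared with other symbols, and Nr1h2 and Nr2e3 had no row under their own symbol, so these 4 receptors were not tested. The list uses no measured value, though it was chosen with earlier results of these data known.

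Tumor cells came from MCRedAL tumors, allografts of a mouse prostate cancer line whose cells carry the red fluorescent protein mCherry. The degarelix group held 3 tumors from mice given degarelix under the skin once tumors had reached about 500 mm2 (unit as in the labels), described by the submitters as post-ADT, that is after androgen deprivation therapy. The untreated group held 3 tumors titled intact and called castration sensitive, and tumors of similar size were used in both groups. Degarelix blocks the pituitary receptor for gonadotropin-releasing hormone and so stops testicular androgen production. All mice were male, were randomized to the groups, and carried grafts of the same line. The sort kept mCherry+ cells that lacked CD45, the product of Adgre1 (a macrophage antigen) and CD11b. Their RNA, with an integrity number of at least 9, was measured on the Affymetrix MTA 1.0 microarray, with a single array for each tumor. The labels call the samples of a group biological replicates, and carry the sampling time only as a tag that they do not explain, which was not used.

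Nuclear receptors are transcription factors that bind DNA through a pair of zinc fingers and, in many members, change activity when a small lipophilic ligand such as a steroid, thyroid hormone, a retinoid, vitamin D or an oxysterol enters the ligand-binding pocket. Many work as heterodimers with a retinoid X receptor on repeats of a short half-site, and without ligand several recruit corepressors that are exchanged for coactivators once ligand binds. In the prostate, steroid receptors govern growth and secretion, and retinoid and vitamin D receptors are known from the differentiation of its epithelium.

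Values are log2 expression as deposited, and a change is degarelix minus untreated on that scale. The test was limma's moderated test with Benjamini-Hochberg adjustment over all 30065 genes at a threshold of 0.05, and "rose" or "fell" is used only of genes past it. The array carries 23 background probe sets that range from 2.14 to 6.93, so a receptor below 6.93 could not be told from background with certainty, and a change of such a dim receptor may be compressed. By group means, 12 of the 42 receptors lay above 6.93 in both groups and 30 lay below it in both. The first principal component over all genes held 63.9% of the variance and placed degarelix tumors at 20.5 to 32.4 and untreated tumors at -27.4 to -21.8. Untreated replicate 1 stood apart on the second component, which held 15.7%, at 24.9 against -11.2 to 5.1 for the other 5 samples. Markers of other cells were also measured. Of 7 fibroblast markers 3 rose (Dcn, Fbln1 and Mfap5) and 0 fell, where 4.21% of all genes were called higher and 7.54% lower. The call of Mfap5 was lost under centring (limma adjusted p = 0.0629) and with degarelix replicate 1 (0.0894) or degarelix replicate 3 (0.0732) left out. The mean level of the 7 markers per tumor was 8.25 to 8.98 in degarelix and 7.52 to 8.06 in untreated tumors. Of 7 macrophage markers 0 passed the test, with a mean level of 6.04 to 6.13 in degarelix and 5.93 to 7.10 in untreated tumors, the highest being untreated replicate 1. Mean levels of endothelial markers were 6.02 to 6.03 in degarelix and 5.95 to 6.38 in untreated tumors, those of neutrophil markers 4.70 to 4.83 and 4.63 to 4.75, and those of lymphocyte markers 4.85 to 5.04 and 4.78 to 4.95. Among these the neutrophil marker Ly6g rose, by 0.38 (limma adjusted p = 0.0473), at levels within the background range, a call lost under centring, cyclic loess, quantile normalization and the replicate block (adjusted p = 0.0508 to 0.0673) and with any single sample other than degarelix replicate 3 left out (0.0839 to 0.168). Of 6 epithelial markers, Krt8, Cldn4 and Krt19 lay above background, with means of 11.92, 10.03 and 9.17 in degarelix and 11.55, 9.90 and 7.29 in untreated tumors, and Krt19 rose (limma adjusted p = 8.76e-05). Epcam, Cdh1 and Krt18 lay within the background range, with means of 3.90, 4.98 and 5.67 in degarelix and 3.85, 4.85 and 5.50 in untreated tumors.

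**Figure D1:**
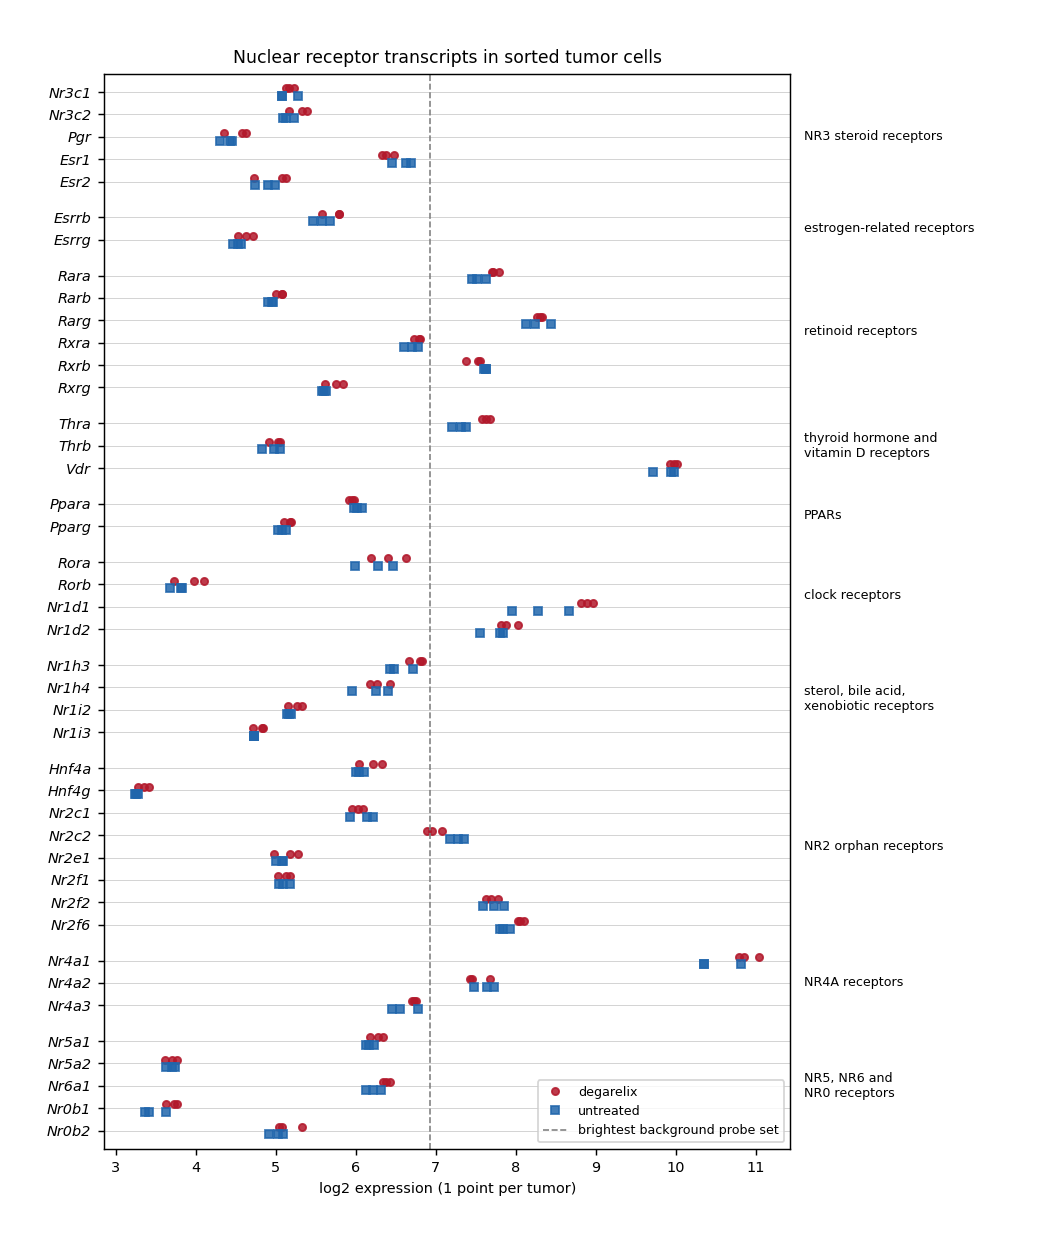
Log2 expression of the 42 measured nuclear receptors (rows, grouped by subfamily) in each tumor, with 3 degarelix tumors as red circles and 3 untreated tumors as blue squares. The dashed line marks the brightest background probe set at 6.93, which 12 receptors exceed in the means of both groups; levels of different receptors come from different probes and are not comparable with each other.

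After degarelix 2 receptor transcripts rose, those of the thyroid hormone receptor gene Thra and of the clock repressor gene Nr1d1, and 0 fell. The other 40 did not pass the test. Over all genes 4.21% were called higher and 7.54% lower, or 11.7% in either direction, and the 2 of 42 receptors called higher are a share near that of all genes. Without the adjustment, 7 receptors were higher and 2 lower at a p under 0.05, against 11.2% and 15.0% of all genes. In 10 receptors the groups did not overlap, against 31.2% of all genes; 8 were higher and 2 lower, against 14.8% and 16.4% of all genes. The median change of the family was 0.10, with values from -0.29 to 0.59, and the median over all genes was 0.04. Values above 0 were seen in 34 of 42 receptors and in 57.5% of all genes. Among receptors below 6.93 in both groups 26 of 30 were above 0, against 67.4% of all genes that dim. Of the 12 receptors above 6.93, 8 were above 0, 2 were called higher and 0 lower. Among the 9625 genes with a mean above 6.93 in at least 1 group, 36.6% were above 0. Of these genes 790 were called higher and 1622 lower. The 95% interval of the change lay within 1 log2 unit of 0 for all 42 receptors and within 0.5 for 40, the exceptions being Nr1d1 and Nr4a1. In sorted but bulk RNA, fewer cells of a type and less RNA per cell cannot be told apart.

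**Figure D2:**
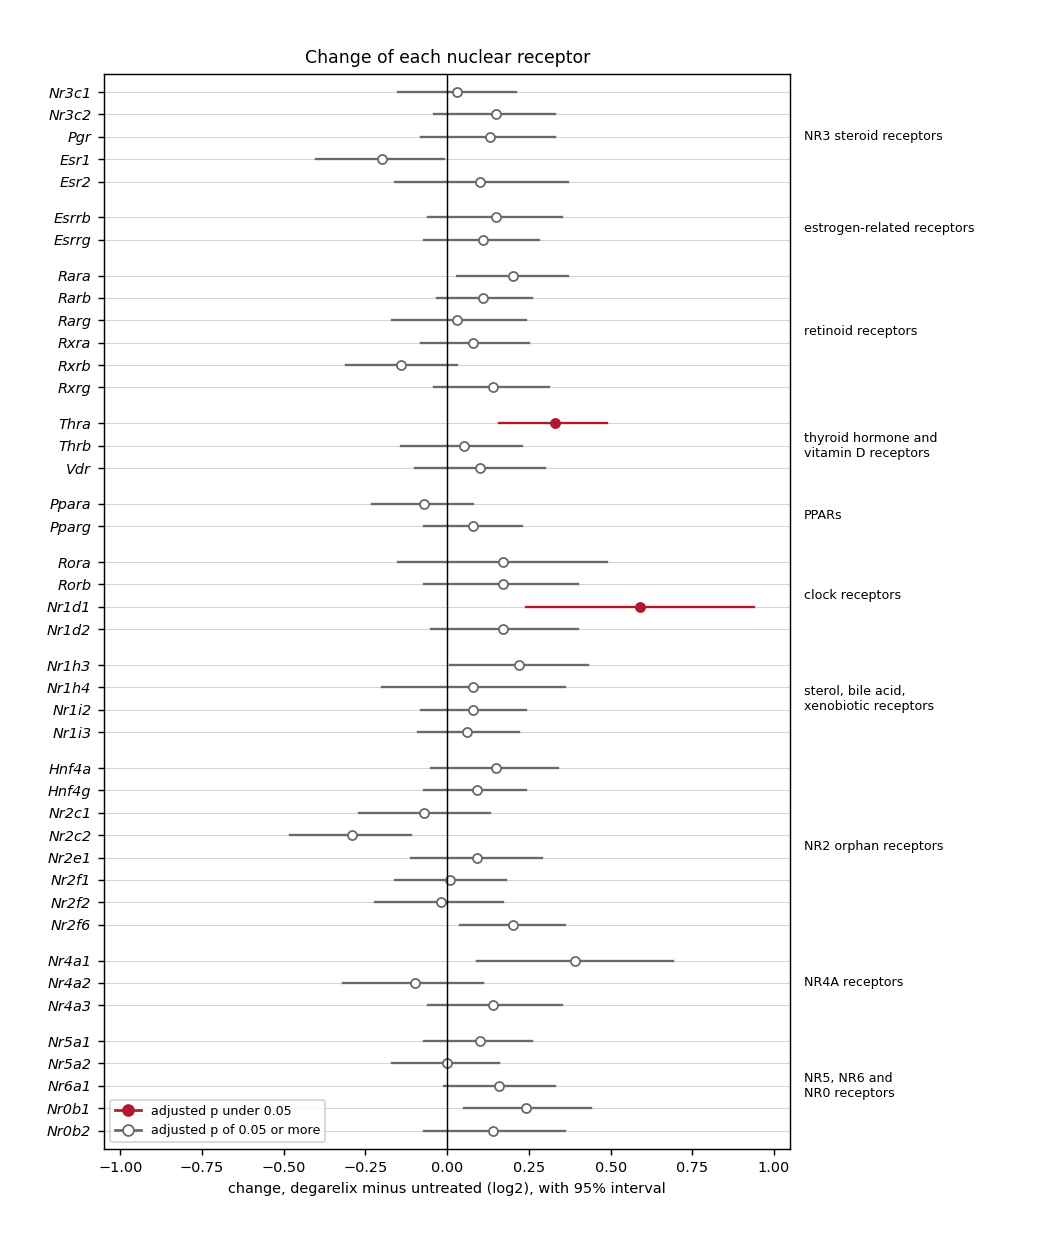
Change of each of the 42 receptors (degarelix minus untreated, log2) with its 95% interval from limma, n = 3 tumors per group. Thra at 0.33 and Nr1d1 at 0.59, in red, are past an adjusted p of 0.05; open grey points are not, and no interval reaches 1 log2 unit on either side of 0.

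Thra encodes the thyroid hormone receptor that predominates in heart, bone and brain. It was at 7.67, 7.63 and 7.58 in degarelix tumors, against 7.31, 7.20 and 7.37 in untreated tumors. All 3 degarelix values lay above all untreated values. The change was 0.33 (SE 0.07), a 1.26-fold difference (limma adjusted p = 0.0224). Thrb, the other thyroid hormone receptor gene, was at 4.91 to 5.05 in degarelix and 4.83 to 5.05 in untreated tumors, within the background range, with a change of 0.05 (SE 0.08). Nr1d1 encodes REV-ERB alpha, a heme-binding repressor of the circadian clock. It was at 8.89, 8.81 and 8.96 in degarelix tumors, against 7.95, 8.28 and 8.66 in untreated tumors. The degarelix tumors lay close together while untreated tumors spread widely (SD 0.07 and 0.35), and the groups did not overlap. The change was 0.59 (SE 0.15), a 1.5-fold difference (limma adjusted p = 0.0423). The fibroblast marker Dcn, which also rose (limma adjusted p = 0.0147), was at 8.71, 8.55 and 9.43 in degarelix and 6.94, 7.35 and 8.02 in untreated tumors, and its part in these changes was not tested. Both calls were lost on leaving out any 1 of several samples. Over all omissions of 1 sample the change was 0.28 to 0.37 for Thra and 0.42 to 0.77 for Nr1d1. The limma adjusted p of Thra was 0.091 with untreated replicate 2 left out, 0.0861 with degarelix replicate 1 left out and 0.0862 with degarelix replicate 2 left out. That of Nr1d1 was 0.103, 0.132 and 0.0911 in the same cases, and 0.0927 with degarelix replicate 3 left out. Centring the arrays at their medians gave 0.0533 for Thra and 0.112 for Nr1d1.

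Both receptors that rose lie on chromosome 11, where in the RefSeq annotation of GRCm38.p6 the spans of Thra and Nr1d1 overlap; no other pair among the 46 receptor genes overlaps there. Rara, the gene of retinoic acid receptor alpha, lies on the same chromosome, as the only other member. The build behind the probes is not given in the sources used here, and whether the probes of either cluster fall in the overlap was not tested, so the Thra and Nr1d1 values may not be independent. Their patterns differed among untreated tumors: Nr1d1 was lowest in untreated replicate 1, and Thra in untreated replicate 2.

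The promoter windows of Nr1d1, its paralog Nr1d2 and Rara are shown because Nr1d1 was called, Nr1d2 was not, and Rara lies on the chromosome of the called pair; Thra is named only. Each is the RefSeq window (GRCm38.p6) from 250 bases before to 50 after the start. They were searched on both strands for the E-box CACGTG, bound by clock activators, the receptor half-site AGGTCA, and DR4, the spaced direct repeat of that half-site to which thyroid hormone and oxysterol receptors bind with RXR, with 1 base of each repeat left free. Capitals mark matches. Nr1d1 is at chr11:98775328-98775627 on the minus strand, Nr1d2 at chr14:18239057-18239356 on the minus strand and the first Rara window at chr11:98937446-98937745 on the plus strand.
Nr1d1: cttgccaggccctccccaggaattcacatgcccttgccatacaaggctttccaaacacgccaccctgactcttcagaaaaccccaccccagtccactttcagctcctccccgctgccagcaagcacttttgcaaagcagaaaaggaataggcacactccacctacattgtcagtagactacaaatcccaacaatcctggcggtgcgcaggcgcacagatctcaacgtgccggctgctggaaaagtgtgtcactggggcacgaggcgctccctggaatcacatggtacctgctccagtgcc
Nr1d2: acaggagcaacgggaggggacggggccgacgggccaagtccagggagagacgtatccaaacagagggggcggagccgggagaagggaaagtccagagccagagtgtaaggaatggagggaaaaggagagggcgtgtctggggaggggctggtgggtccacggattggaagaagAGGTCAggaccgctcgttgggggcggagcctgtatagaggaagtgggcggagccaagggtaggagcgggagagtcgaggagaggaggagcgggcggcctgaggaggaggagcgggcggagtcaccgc
Rara: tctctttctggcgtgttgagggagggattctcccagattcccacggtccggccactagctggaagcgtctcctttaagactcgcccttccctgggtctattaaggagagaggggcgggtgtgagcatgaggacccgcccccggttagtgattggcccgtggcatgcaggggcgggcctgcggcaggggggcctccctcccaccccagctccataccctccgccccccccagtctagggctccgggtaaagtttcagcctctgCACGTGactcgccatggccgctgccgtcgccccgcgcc

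The Nr1d1 window held none of these letters, the Nr1d2 window 1 half-site starting at -77, and the Rara window shown 1 E-box starting at 13. Rara has 4 windows: the second overlaps the first and holds the E-box at -10, the third holds no match, and the fourth holds a half-site at 34 and no E-box. Windows were found for 42 of the listed receptor genes, 63 windows in all. Of these 63, 6 held the E-box (9.52%), 12 the half-site (19.0%) and 0 the DR4 repeat, against 7.15%, 16.3% and 0.0974% of 32851 windows of all genes. A match describes the letters and is no evidence of binding.

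The clock receptors were otherwise close to their spread. Nr1d2, which encodes REV-ERB beta, was at 7.81, 7.87 and 8.02 in degarelix and 7.84, 7.55 and 7.80 in untreated tumors, with overlapping groups and a change of 0.17 (SE 0.10, limma adjusted p = 0.304). Rora, an activator that competes with REV-ERB for the same sites, had 3 clusters with changes of 0.17, 0.13 and 0.09. Rorb, known from retina and brain, had 2 clusters with changes of 0.17 and 0.09, all below 6.93. Neither Rora nor Rorb passed the test (limma adjusted p = 0.477 and 0.331).

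Steroid receptors of the NR3 group did not pass the test in any of 5 cases, and all 5 lay below 6.93. Nr3c1 encodes the glucocorticoid receptor, whose target genes overlap with androgen targets. It was at 5.16, 5.13 and 5.22 in degarelix and 5.28, 5.07 and 5.07 in untreated tumors. The change of 0.03 had a 95% interval from -0.15 to 0.21 at a level where a change could have been missed. Esr1, the estrogen receptor alpha gene, was at 6.33, 6.37 and 6.47 in degarelix tumors, against 6.69, 6.63 and 6.45 in untreated tumors. Its groups overlapped through untreated replicate 3, and the change was -0.20 (SE 0.09, limma adjusted p = 0.18). The mineralocorticoid receptor gene Nr3c2, the progesterone receptor gene Pgr and the estrogen receptor beta gene Esr2 had changes of 0.15, 0.13 and 0.10, with overlapping groups. The estrogen-related receptors are orphans that act on energy metabolism. Of those measured, Esrrb was at 5.79, 5.79 and 5.57 in degarelix and 5.68, 5.57 and 5.46 in untreated tumors (change 0.15, SE 0.09), and Esrrg had a change of 0.11 (SE 0.08), neither past the test.

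Retinoid receptors bind retinoic acid as RAR and RXR pairs. None of 6 passed the test, and 1 had an unadjusted p under 0.05. That was Rara, at 7.79, 7.70 and 7.71 in degarelix tumors, against 7.51, 7.45 and 7.63 in untreated tumors, groups that did not overlap, with a change of 0.20 (SE 0.07, limma adjusted p = 0.13). Rarg, the receptor of epithelia, was at 8.30, 8.26 and 8.32 in degarelix and 8.12, 8.24 and 8.44 in untreated tumors, so the untreated values spanned the degarelix ones. Among the RXR partners, Rxrb was at 7.55, 7.53 and 7.37 in degarelix tumors, against 7.63, 7.63 and 7.60 in untreated tumors, lower without overlap but not past the test (change -0.14, SE 0.07, limma adjusted p = 0.273). Rxra, Rxrg and Rarb had changes of 0.08, 0.14 and 0.11. Vdr, the vitamin D receptor gene, was at 10.01, 9.92 and 9.98 in degarelix and 9.71, 9.94 and 9.97 in untreated tumors. The groups overlapped around a change of 0.10 (SE 0.09), with untreated replicate 1 lowest.

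The measured receptors for fatty acids, sterols, bile acids and foreign compounds were dim and none passed the test. Ppard and Nr1h2, of the same classes, were not tested. Ppara, a regulator of fatty acid oxidation, was at 5.98, 5.95 and 5.91 in degarelix and 6.01, 6.08 and 5.97 in untreated tumors (change -0.07), and Pparg, the adipocyte regulator, had a change of 0.08. Nr1h3 encodes the oxysterol receptor LXR alpha. It was at 6.82, 6.80 and 6.66 in degarelix tumors, against 6.71, 6.48 and 6.42 in untreated tumors. The groups overlapped through untreated replicate 1, and the change of 0.22 (SE 0.09) had a limma adjusted p of 0.171. The bile acid receptor gene Nr1h4, the pregnane X receptor gene Nr1i2 and the constitutive androstane receptor gene Nr1i3 had changes of 0.08, 0.08 and 0.06.

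Of 8 measured NR2 orphan receptors none passed the test. Nr2c2 encodes testicular receptor 4, which binds the same repeats as retinoid receptors. It was at 6.89, 6.95 and 7.08 in degarelix tumors, against 7.35, 7.28 and 7.17 in untreated tumors. The groups did not overlap, and with a change of -0.29 (SE 0.08) it was the receptor nearest to the threshold outside it (limma adjusted p = 0.0508). With dim genes left out its adjusted p was 0.0497, and without degarelix replicate 3 it was 0.0364. Nr2f6, a COUP family repressor, was at 8.02, 8.05 and 8.10 in degarelix tumors, against 7.92, 7.84 and 7.80 in untreated tumors. Its groups did not overlap either, with a change of 0.20 (SE 0.07, limma adjusted p = 0.101). Its relatives Nr2f2 and Nr2f1, known from mesenchymal development, had changes of -0.02 and 0.01 (SE 0.08 and 0.07). Nr2f1, with means of 5.11 in degarelix and 5.10 in untreated tumors, lay within the background range, where a change could have been missed. Nr2c1, Hnf4a, Hnf4g and Nr2e1 ranged from -0.07 to 0.15 and also lay below 6.93.

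The NR4A receptors are immediate early genes that need no known ligand. Nr4a1 was at 10.85, 10.79 and 11.04 in degarelix tumors, against 10.81, 10.35 and 10.35 in untreated tumors. Untreated replicate 1 lay among the degarelix values and the other untreated tumors below them. The change was 0.39 (SE 0.13), a 1.31-fold difference that missed the threshold (limma adjusted p = 0.0938). Without untreated replicate 1, the sample apart on the second component, it was 0.55 with a limma adjusted p of 0.00714. Nr4a2 was at 7.42 to 7.67 in degarelix and 7.48 to 7.73 in untreated tumors (change -0.10, SE 0.10, limma adjusted p = 0.509). Nr4a3 had a change of 0.14 (SE 0.09, limma adjusted p = 0.353) and lay below 6.93 in both group means. Without untreated replicate 1 there were 5 receptors higher and 0 lower, Nr1h3 and Nr0b1 being the additional ones (limma adjusted p = 0.0379 and 0.0273), against 4.81% of all genes higher and 10.8% lower.

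The remaining receptors act in development and steroid-producing glands, and none of 5 passed the test. Nr0b1 encodes DAX1, a repressor of steroid synthesis genes. It was at 3.72, 3.63 and 3.76 in degarelix tumors, against 3.62, 3.41 and 3.36 in untreated tumors, higher without overlap but deep within the background range (change 0.24, SE 0.09, limma adjusted p = 0.113). Nr6a1, the germ cell nuclear factor gene, was at 6.37, 6.42 and 6.34 in degarelix and 6.31, 6.12 and 6.21 in untreated tumors, also without overlap (change 0.16, SE 0.08, limma adjusted p = 0.216). Nr0b2, which encodes SHP, had a change of 0.14 and the steroidogenic factor gene Nr5a1 one of 0.10. Its relative Nr5a2 was at 3.61 to 3.76 in degarelix and 3.62 to 3.74 in untreated tumors.

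**Figure D3:**
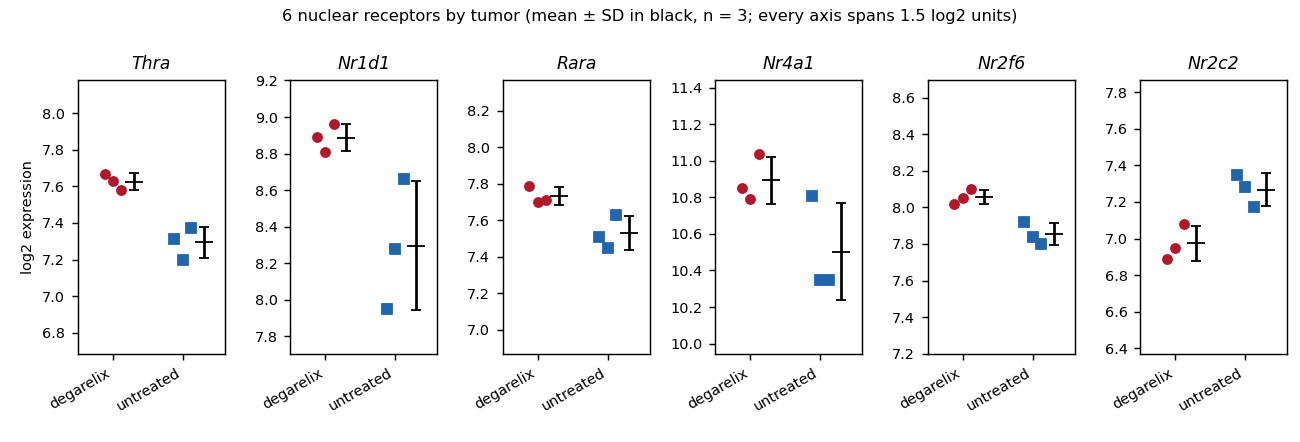
Log2 expression of 6 receptors in each of 3 degarelix (red circles) and 3 untreated (blue squares) tumors, with mean ± SD in black; every axis spans 1.5 log2 units. Thra and Nr1d1 passed the test; in Nr4a1 the untreated tumor at 10.81 lies among the degarelix tumors, and Nr2c2 is lower after degarelix at an adjusted p of 0.0508.

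Coregulators carry the receptors' signal to chromatin. Of 19 measured coregulator genes 0 passed the test in limma, against 4.21% of all genes called higher and 7.54% lower. At an unadjusted limma p under 0.05, 2 were higher and 4 lower, against 11.2% and 15.0% of all genes. Values below 0 were seen in 15 of the 19 and in 12121 of all 30065 genes, with medians of -0.14 and 0.04. In 17 of the 19 both group means lay above 6.93. Among the 9625 genes with a mean above 6.93 in at least 1 group, 5985 were below 0, with a median of -0.09. The p160 coactivator genes Ncoa1, Ncoa2 and Ncoa3 had changes of -0.14, -0.22 and -0.15 (limma adjusted p = 0.248, 0.121 and 0.33), and the ligand-dependent corepressor gene Nrip1 -0.08. Ppargc1a, the coactivator of mitochondrial genes, was at 7.87, 7.99 and 8.40 in degarelix and 9.27, 8.51 and 8.11 in untreated tumors. The untreated spread was wide and the groups overlapped, with a change of -0.54 (SE 0.26) that missed the threshold (limma adjusted p = 0.235).

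The counts of the lists that follow stand against 4.21% of all genes called higher, 7.54% called lower and a median of 0.04. Among 14 measured clock genes beside the receptors, 3 rose and 0 fell, with a median of 0.11. Bhlhe40, a repressor of E-box genes, was at 8.04, 7.99 and 8.12 in degarelix tumors, against 7.56, 7.31 and 7.25 in untreated tumors, and rose by 0.67 (SE 0.09, limma adjusted p = 0.00289). The period gene Per2 rose by 0.50 and Npas2, a partner of Arntl, by 0.35 (limma adjusted p = 0.0279 and 0.0311), the means of Npas2, 5.98 in degarelix and 5.62 in untreated tumors, lying within the background range. Arntl, the activator that REV-ERB represses, was at 7.80, 7.62 and 8.0 in degarelix tumors, against 6.80, 7.43 and 7.59 in untreated tumors. It was higher without overlap but missed the threshold (change 0.53, SE 0.19, limma adjusted p = 0.117). Clock, named although outside the naming rule, was lower without overlap and also missed it (change -0.56, SE 0.17, limma adjusted p = 0.0682). At an unadjusted limma p under 0.05, 5 of the 14 clock genes were higher and 2 lower, against 11.2% and 15.0% of all genes. Per1 and Dbp had changes of 0.15 and 0.01. Per2 and Npas2 each lost their call with median centring (limma adjusted p = 0.0826 and 0.0508) and on leaving out single samples, and Per2 with the replicate number as a block (0.0515). Mice were kept on a light-dark cycle, and the labels do not give the time of day at which tumors were taken.

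Among thyroid hormone genes 1 of 9 rose and 1 fell. Dio1, the deiodinase gene that thyroid hormone induces in liver and kidney, was at 6.73, 6.87 and 7.38 in degarelix tumors, against 5.77, 5.79 and 5.49 in untreated tumors, a rise of 1.31 (SE 0.16, limma adjusted p = 0.00164) between groups that did not overlap. Its untreated mean of 5.68 lay within the background range, and its degarelix mean of 6.99 only just above 6.93. The lipogenic malic enzyme gene Me1, another hormone-induced gene in liver, fell by 0.45 (SE 0.11, limma adjusted p = 0.0275), a call lost on leaving out untreated replicate 2 or 3 or any degarelix sample (adjusted p = 0.0632 to 0.102). The other 7 were not called, and the median of the list was -0.02.

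Of 12 retinoid synthesis and transport genes 3 rose and 2 fell (median 0.10). Dhrs9, a retinol dehydrogenase gene, was at 6.65, 6.57 and 6.68 in degarelix tumors, against 4.59, 5.19 and 5.71 in untreated tumors, and rose by 1.47 (SE 0.23, limma adjusted p = 0.00508). Lrat, which stores retinol as esters, rose by 0.87 (SE 0.13). Both Dhrs9 and Lrat had means below 6.93 in both groups, within the background range. The retinal reductase gene Rdh11 fell by 0.65 (SE 0.10) and Ttr, which carries the retinol-binding protein in blood, fell by 1.34 (SE 0.21). Aldh1a3, named although outside the naming rule, rose by 0.29 within the background range (limma adjusted p = 0.0493). Its call was lost under centring, cyclic loess, an intensity trend and the replicate block (adjusted p = 0.0525 to 0.107). It was also lost against a 1.2-fold change and with any single sample other than degarelix replicate 3 left out (0.0566 to 0.173). Of 11 measured RAR targets 1 rose and 0 fell (median 0.15). It was Dhrs3, a retinal reductase gene induced by retinoic acid, at 10.11, 10.07 and 10.17 in degarelix tumors, against 9.38, 8.70 and 8.99 in untreated tumors (change 1.09, SE 0.15, limma adjusted p = 0.00272).

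Of 12 measured LXR targets 3 rose and 0 fell (median 0.18). Abca1, the cholesterol efflux pump gene, was at 8.22, 8.17 and 8.28 in degarelix tumors, against 7.64, 6.86 and 7.28 in untreated tumors, and rose by 0.96 (SE 0.17, limma adjusted p = 0.00818). Mylip, which encodes a ligase that degrades the LDL receptor, rose by 0.58 (SE 0.10) and the efflux pump gene Abcg1, within the background range, by 0.32 (SE 0.09, limma adjusted p = 0.047), the last a call lost under median centring, cyclic loess and an intensity trend (adjusted p = 0.0785, 0.0516 and 0.0536) and with any single sample other than untreated replicate 1 left out (0.0753 to 0.159). Of 14 PPAR targets 1 rose, the thioesterase gene Acot1 by 0.57 (SE 0.09), and 1 fell, the fatty acid-binding protein gene Fabp4 at -1.12 (SE 0.13), with a median of 0.16. Fabp4 is also known from endothelial cells and macrophages; it was at 6.16 in degarelix and 7.28 in untreated tumors on average. Macrophage markers lay below 0 in 6 of 7 cases, with a median of -0.42 and C1qb at -0.79, and endothelial markers in 4 of 7, with a median of -0.19. At an unadjusted p under 0.05, 1 macrophage and 3 endothelial markers were lower, against 15.0% of all genes, and 0 of either list were called. The part of these cells in the Fabp4 value was not tested. Of 10 vitamin D genes 1 rose, the sterol hydroxylase gene Cyp27a1 by 0.70 (SE 0.08, limma adjusted p = 0.00117) and 0 fell, with a median of 0.16.

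Genes linked to steroid receptors held the deepest fall and the highest rise on the 11 lists. Of 8 estrogen and progesterone targets 5 rose and 1 fell (median 0.50), where 4.21% of all genes were called higher and 7.54% lower. In 5 of the 8 both group means lay above 6.93. Among the 9625 genes with a mean above 6.93 in at least 1 group, 790 were called higher and 1622 lower. The lists were chosen with earlier results of these data known, so these counts are descriptive only. Greb1, a cofactor gene induced by estrogen in breast cancer cells and by androgen in human prostate cancer cells, was at 6.99, 6.95 and 7.13 in degarelix tumors, against 8.83, 8.74 and 9.01 in untreated tumors. It fell by 1.84 (SE 0.09, limma adjusted p = 3.75e-05). Igfbp4, the lactoferrin gene Ltf and Wnt4 rose by 0.69, 0.48 and 0.51, Ltf within the background range, and outside the naming rule Xbp1 and Cited2 by 0.56 and 0.71. Wnt4, Xbp1 and Cited2 lost their calls without degarelix replicate 1 (limma adjusted p = 0.0743, 0.0567 and 0.0775) or degarelix replicate 2 (0.0631, 0.0516 and 0.0949), and Xbp1 and Cited2 also without degarelix replicate 3 (0.0513 and 0.0798) and with median centring (0.061 and 0.086). Of 10 genes of corticosteroid access and response 2 rose and 0 fell (median 0.01). Scnn1a, the sodium channel subunit induced by mineralocorticoids in kidney, was at 9.76, 9.96 and 10.25 in degarelix tumors, against 8.27, 8.49 and 8.22 in untreated tumors, a rise of 1.66 (SE 0.13, limma adjusted p = 0.000201). Hsd11b1, which regenerates active glucocorticoid, rose by 0.70 (SE 0.08), at levels within the background range.

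Of 11 targets of bile acid and xenobiotic receptors 0 rose and 3 fell, with a median of 0.09. Cyp2b10, the classical target of the constitutive androstane receptor in mouse liver, was at 8.38, 8.23 and 8.90 in degarelix tumors, against 10.39, 10.03 and 9.95 in untreated tumors, and fell by 1.62 (SE 0.18, limma adjusted p = 0.000914). Members of the Cyp2b family are closely related in sequence, so the value is uncertain as that of a single gene. The export pump gene Abcc2 fell by 0.98 (SE 0.15), with means of 4.77 in degarelix and 5.75 in untreated tumors that lie within the background range. Abcb1b, another export pump gene, fell by 0.34 (SE 0.08), losing its call under cyclic loess and quantile normalization (limma adjusted p = 0.0875 and 0.0954) and on leaving out untreated replicate 3 (0.0744), degarelix replicate 1 (0.0999) or degarelix replicate 2 (0.0865). The transcript of the receptor itself, Nr1i3, was at 4.84, 4.82 and 4.71 in degarelix and 4.72, 4.72 and 4.73 in untreated tumors. The members of all these lists were chosen by their known roles, many described in other tissues, and which receptor, if any, acts on a given gene in these cells was not measured.

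**Figure D4:**
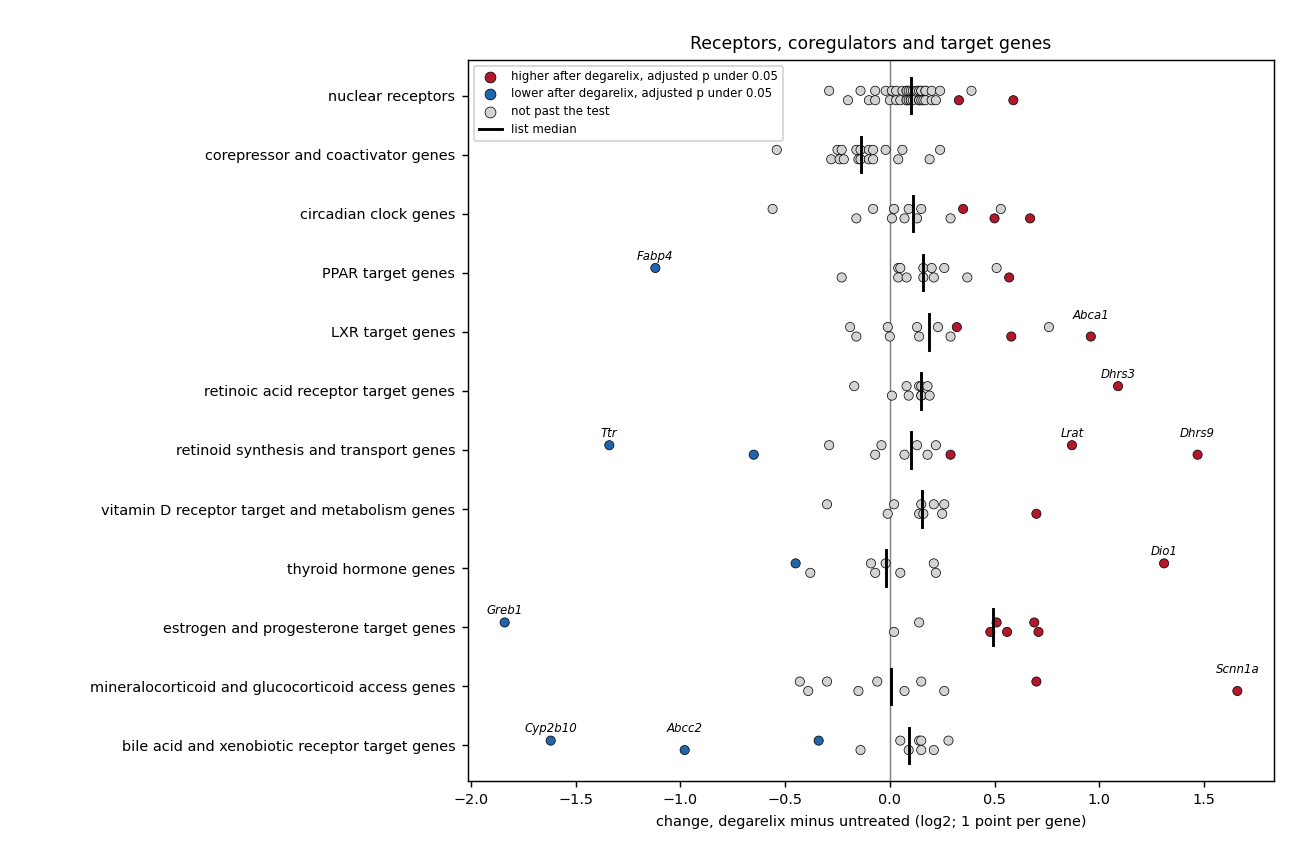
Change of each gene (degarelix minus untreated, log2) in the receptor family and in 11 lists of coregulators, clock genes and receptor targets, with 1 point per gene and the list median as a black bar. Receptors lie between -0.29 and 0.59, while target genes run from Greb1 at -1.84 to Scnn1a at 1.66; called genes are red (higher) or blue (lower).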

How the data were processed

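The deposited table holds log2 expression of 6 arrays, made by the authors with Affymetrix Expression Console and RMA per the submitters' processing notes, with the version not given in the sources used here. Because RMA corrects background and equalises array distributions before probes are combined, small signals are flattened and a shift common to one array is lost. Of 72688 rows 6732 were controls. Of 65956 clusters 30604 had 1 symbol, 2146 several and 33206 none; symbols came from the platform annotation, and 1142 were updated through Entrez identifiers or unique synonyms in the RefSeq table of GRCm38.p6. The brightest cluster of each of 30065 genes was tested with lmFit and eBayes from limma 3.58.1 under R 4.3.3, a method checked on simulated data, and p-values were adjusted over all of them. Members and lists were chosen with earlier results of these data known. All members are accounted for, with 6 values for those called and for the brightest uncalled one of each subfamily; of each list up to 4 called genes by adjusted p were named, with further genes fixed by name, not all of which are reported here. Tables and figures used Python 3.11.15, pandas 2.3.3 and matplotlib 3.10.9. Alternatives were other scalings and filters, a replicate block, a test against a 1.2-fold change and leaving out each sample. The number of arrays, 3 per group, limits the precision.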

Additional observations from a re-analysis of the deposited data

How the results depend on the processing

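After centring the arrays at their medians 0 receptors were called, and against a 1.2-fold change also 0; the count of lower receptors was 1 with dim genes left out (Nr2c2). Leaving out 1 sample gave 0 to 5 receptors higher and 0 to 1 lower, 627 to 1649 genes higher and 967 to 3256 lower. Over all genes, 1265 were higher and 2266 lower; centring gave 699 higher and 1927 lower, and the test against a 1.2-fold change 241 higher and 508 lower. The share of higher calls is therefore set partly by scaling, and the cause was not tested. The median over all genes was -0.01 to 0.06 over these alternatives and that of the receptors 0.05 to 0.14, with 28 to 35 of 42 receptors above 0. Of 588 recomputed receptor values 572 stayed on their side of the threshold, 11 lost a call (Thra or Nr1d1) and 5 gained one, with 0 called values changing sign; 11 receptors outside the threshold changed sign in at least 1 setting. Of 28 named list genes that were called, 14 kept their call under every alternative run, among them Greb1, Scnn1a, Cyp2b10, Dio1, Dhrs3, Dhrs9 and Bhlhe40. The replicate number is not said to pair tumors. Deviations of same-numbered samples correlated at 0.16, 0.04 and 0.20, each sample highest with its own number. For degarelix replicate 2 the margin was small, at 0.04 against 0.03 with untreated replicate 1. With 3 samples per group these values cannot decide whether tumors were paired. Under the replicate block 2 receptors were higher and 0 lower, with 1435 genes higher and 2375 lower. Receptors below 6.93 are limited by signal over background.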

Other observations

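The rows shared by a receptor and other symbols were read as values only. The row of Ppard, the gene of PPAR delta, shared with 1810013A23Rik, was at 8.02, 7.98 and 8.11 in degarelix tumors, against 8.12, 8.26 and 8.20 in untreated tumors, a difference of -0.16 without overlap. The row of Esrra, the gene of estrogen-related receptor alpha, shared with a microRNA gene, was at 7.51, 7.48 and 7.43 in degarelix and 7.54, 7.46 and 7.31 in untreated tumors, a difference of 0.04. Neither was tested, since the share of each symbol in the signal is not known.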
